A study of Mus with 4 samples.

Results

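The p53 pathway restrains cell division, and 6 of its genes were examined for TBX3 binding: Trp53, Mdm2, Ccng1, Gadd45a, Btg1 and Btg2. They are the listed members of a group of p53 and antiproliferative response genes, taken by name, and they are 6 of the 21887 protein-coding genes in the RefSeq annotation of GRCm38. They were chosen with earlier results of these data known. The data are TBX3 ChIP-Seq of mouse primary hepatocytes, in which chromatin was pulled down through an HA tag on the overexpressed protein. The libraries are 2 of ChIP and 2 of Input, the sheared chromatin before the pulldown. All 4 came from cells with pT2-SVNeo-EF1-eGFP-P2A-Tbx3-HA, a construct in which, by its name, the EF1 promoter drives eGFP and HA-tagged Tbx3, so the Input cells carried it too and no library without the tagged protein was analysed here. The track describes binding of an overexpressed protein in cultured hepatocytes, and since it holds no transcript levels, the identity of the cells was not checked against markers.

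The p53 protein, encoded by Trp53, is a transcription factor that is stabilised by DNA damage and other stress and switches on genes for cell cycle arrest, repair and cell death. Mdm2 encodes the ubiquitin ligase that marks p53 for degradation, and because Mdm2 is itself switched on by p53, the pair form a feedback loop. Ccng1, Gadd45a and Btg2 are among the classic p53 targets, while Btg1 is a paralogue of Btg2. TBX3 is a T-box transcription factor known mainly as a repressor.

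The authors deposited a single track made with MACS2, which compares the number of ChIP reads over each base with the number expected from Input. Its values, called the score here, are the −log10 of a Poisson p-value. The track gives no value per library, so the spread between replicates is not known for any value below, and the intervals cover counting error only. The reads over each base and the expected level were inferred from the scores, with about 30071376 ChIP reads in all if each read was extended to 150 bp. The lowest level expected anywhere was 2.43 reads, inferred as a genome-wide level that applied where the local Input level was lower. At that level 10 reads gave a score of 4.31 and 11 reads, a fold of 4.52, gave 5.01, so a base at this level needed 11 reads to reach a score of 5. Where the expected level was higher, a score of 5 took more reads but could be reached at a lower fold. Chromosome 10, which carries Mdm2 and Btg1, was deeper than the rest, at 1.41 times the autosome median, while chromosomes 1, 6 and 11, which carry the other 4 genes, lay at 1.03 to 1.05 times. Depth here is the mean inferred ChIP pileup of a chromosome.

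No called region lay within 10 kb of any of the 6 genes, where a region is a stretch of at least 200 bp whose bases scored 5 or more, with gaps of up to 30 bp joined. Across all protein-coding genes, 0.672% had such a region, a share so low that 0 of 6 does not set these genes apart. There was none within 50 kb either. The nearest region to Trp53 was 309195 bp away, the nearest to Btg1 was 1171205 bp away, and the other 4 genes lay between 6943148 and 36095848 bp from one. Shorter or lower sites were present at Trp53 and Mdm2 but did not reach 5 at Ccng1, Gadd45a, Btg1 or Btg2. E2f7 and E2f8 are the loci of TBX3 binding on which the study centres, and they serve as references here. Within 1 kb of a gene end, 22.79 was reached at E2f7 from 31 reads and 15.53 at E2f8 from 23 reads.

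**Figure D1:**
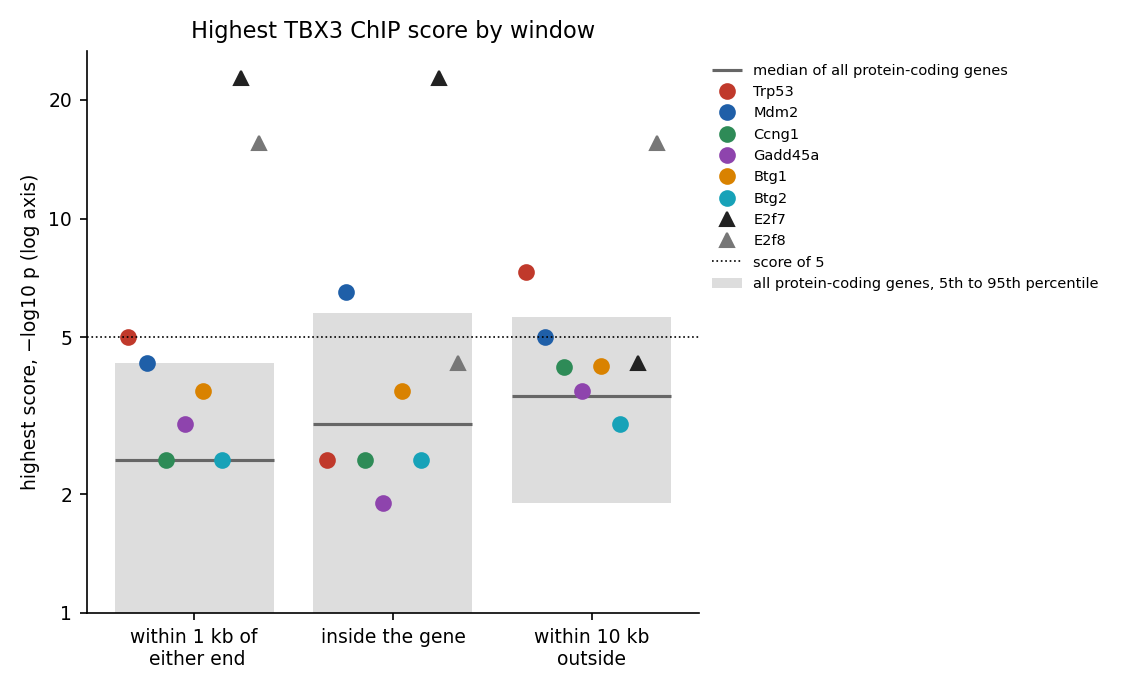
Each point is the highest score (−log10 p, log axis) of 1 gene within 1 kb of either end, inside the gene or within 10 kb outside; grey bars span the 5th to 95th percentile of all 21887 protein-coding genes, and grey lines are their medians. Trp53 outside (7.31) and Mdm2 inside (6.51) lie above the grey bars, as does Trp53 at its ends (5.01), and all 6 genes lie below E2f7 (22.79) and E2f8 (15.53) at the ends.

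Trp53 (gene 22059) occupies positions 69580348 to 69591873 of chromosome 11 in GRCm38. The highest score in its surroundings was 7.31 at position 69579289, 1059 bp below its lower-coordinate end. There 14 ChIP reads were inferred against 2.43 expected, a fold of 5.75, and the Benjamini-Hochberg adjusted p of the MACS2 value over all positions of the track was 0.00264. Within 10 kb outside a gene, a score as high was found at 1.52% of protein-coding genes (95% Wilson interval 1.36 to 1.69%). Among the genes of chromosome 11 the share was 2.30%, and by the mean score of that window 7.85% of all genes were as high. This is the highest score found at any of the 6 genes.

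The position of the Trp53 site falls inside a neighbour. Wrap53 (gene 216853), which encodes a Cajal body protein needed by telomerase, runs from 69561754 to 69580250 and ends 97 bp below Trp53. The summit is 961 bp inside Wrap53 from the end that faces Trp53, so the value counts as a score of 7.31 within 1 kb of an end for Wrap53 and as a score outside the gene for Trp53. The annotation used here gives no strand, so a gene's transcription start was not told apart from its other end, and from this track alone the site cannot be assigned to either gene. Bases that scored 3 or more formed a single run of 231 bp around the summit, of which 114 bases reached 5, too few for a called region.

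Within 1 kb of its own ends Trp53 scored 5.01, a value reached by 3.60% of genes. That base is exactly 1000 bp from the gene and is the flank of the same summit. With windows of 500 bp, 53.9% of genes scored as high as Trp53, and with windows of 2 kb, which take in the summit, 1.07% did. Inside Trp53 the highest score was 2.44 from 7 reads, and 76.4% of genes had a score as high in their bodies. Apart from the site inside Wrap53, the surroundings of Trp53 held 3 short runs of at least 3, all above its higher-coordinate end, with scores from 3.02 to 3.55.

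Mdm2 (gene 17246) occupies positions 117688875 to 117710758 of chromosome 10. Its highest score, 6.51, was inside the gene at position 117702547, which is 8211 bp from the higher-coordinate end and 13672 bp from the lower. At that base 13 ChIP reads stood against 2.43 expected, a fold of 5.34, with an adjusted p of 0.0103 for the MACS2 value. Of all protein-coding genes, an inside score as high was found at 2.93% (95% Wilson interval 2.72 to 3.17%). Among the 1000 genes closest in length to Mdm2 the share was 1.80%, and among the genes of chromosome 10 it was 8.39%.

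The site inside Mdm2 was a run of 313 bp with a score of at least 3, and 84 of its bases reached 5. At its ends Mdm2 scored 4.31 from 10 reads, at a base 40 bp below the gene, and 7.20% of genes scored as high. Below the gene, 1120 bp from it, a further summit reached 5.01 at position 117687755. That summit lies between Mdm2 and its neighbour Cpm (gene 70574), which encodes a carboxypeptidase, 403 bp from the end of Cpm that faces Mdm2. Only 3 bases there reached 5, and 10.3% of genes had a score as high within 10 kb outside.

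The scores of Mdm2 were lower when the expected level was raised for the depth of chromosome 10. On that chromosome the Input level exceeded the lowest expected level at 72.2% of bases, against 38.9 to 39.6% on chromosomes 1, 6 and 11. For this setting, called chromosome depth, the lowest expected level was multiplied by the chromosome's depth relative to the autosome median, where that was above 1. The mean inferred ChIP pileup of chromosome 10 was 2.44 reads, so the raised level there lay above that mean. With the expected level raised in this way, the inside score of Mdm2 was 4.81, the score at its ends 3.05 and the score outside 3.61. Scores as high were then found at 11.8% of genes inside, 16.6% at the ends and 35.0% outside. The site beside Trp53 still scored 7.16 in that setting. Read pairs could not be identified in the track. To stand in for counting each pair once, the inferred reads were divided by 2 and rounded down, and the expected level divided by 2. If the libraries were not read in pairs, this setting only lowers the read numbers. In that setting the Trp53 site scored 4.39 and the Mdm2 site 3.56, values reached by 1.46% and 6.004% of genes. Why the depth differs between chromosomes was not tested.

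**Figure D2:**
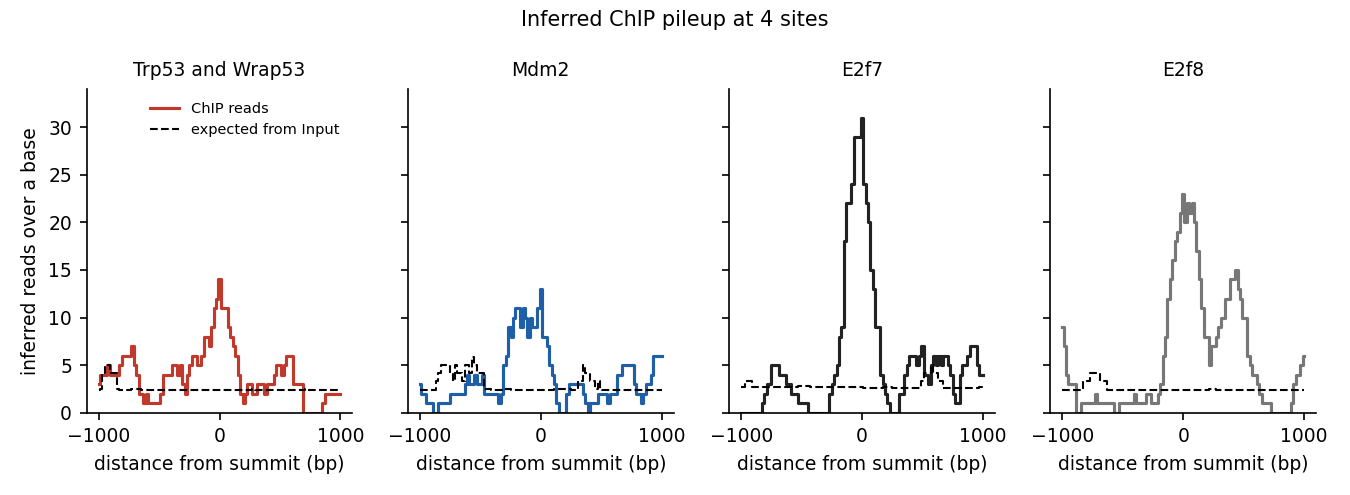
Lines are the inferred ChIP reads over a base (solid) and the expected level (dashed) against the distance in bp from the summit. The expected level comes from Input, or is the genome-wide level where that is higher. Panels show the Trp53 and Wrap53 site, the Mdm2 site and the reference sites at E2f7 and E2f8. The summits hold 14, 13, 31 and 23 reads.

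The inferred pileup at both sites rose and fell 1 read at a time, but the inference itself favours small changes between neighbouring stretches. In the 1 kb around each summit the inferred pileup changed 70 times at Trp53 and 63 times at Mdm2, and 100% of these changes were of 1 read. At E2f7 the figure was 98.0% and at E2f8 96.6%. The expected level within 500 bp of the summit rose no higher than 2.50 reads at Trp53 and 5.01 reads at Mdm2, against 3.34 at E2f7 and 2.50 at E2f8. The summit base itself stood at the lowest expected level at both members. The folds at these summits are therefore against the genome-wide level and not a local Input level.

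Ccng1 (gene 12450; chromosome 11, 40748552 to 40755309) encodes cyclin G1, an unconventional cyclin that acts in the feedback between p53 and Mdm2. Its highest score at the ends and inside was the same base, 2.44 from 7 reads, located 919 bp inside the higher-coordinate end. A score as high was found at the ends of 50.5% of genes and inside 76.4% of them. Within 10 kb outside, the score was 4.20 from 10 reads, 7144 bp below the gene and nearer to Nudcd2 than to Ccng1, and 26.5% of genes had one as high. Only 2 runs of at least 3 lay in the gene and its flanks, of 4 and 20 bp.

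Gadd45a (gene 13197; chromosome 6, 67035096 to 67037407) encodes a small stress protein that takes part in growth arrest and DNA repair. It scored 3.02 from 8 reads at its ends, a value reached by 29.0% of genes. Inside the gene the score was 1.90, the lowest inside score of the 6, and 86.5% of genes had one as high. Outside, it scored 3.65, as 46.6% of genes did. Gadd45a is also the shortest of the 6 at 2312 bp, and a maximum taken over fewer bases tends to be lower. Among the 1000 genes closest to it in length, 52.3% had an inside score as high.

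Btg1 (gene 12226; chromosome 10, 96617001 to 96622813) and Btg2 (gene 12227; chromosome 1, 134074865 to 134079155) encode antiproliferative proteins that bind the machinery that shortens mRNA tails. The score at the ends of Btg1 was 3.65 from 9 reads, at a base 501 bp inside the gene, and 14.7% of all genes but 31.0% of the genes of chromosome 10 scored as high. Outside Btg1 the score was 4.24, reached by 23.6% of all genes and 50.05% of chromosome 10 genes. Btg2 scored 2.44 both at its ends and inside, at the same base, and 3.02 outside, where 74.8% of genes scored as high. Btg1 therefore stood higher than Btg2 in each of the 3 windows, by 2 reads over the best base. With the expected level raised to chromosome depth, Btg1 scored 2.53 and Btg2 2.31 at their ends. By reads summed over the end windows, relative to the mean pileup of each gene's chromosome, the order was reversed. Btg1 was at 0.961 and Btg2 at 1.29, with 49.6% and 13.5% of genes as high.

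**Figure D3:**
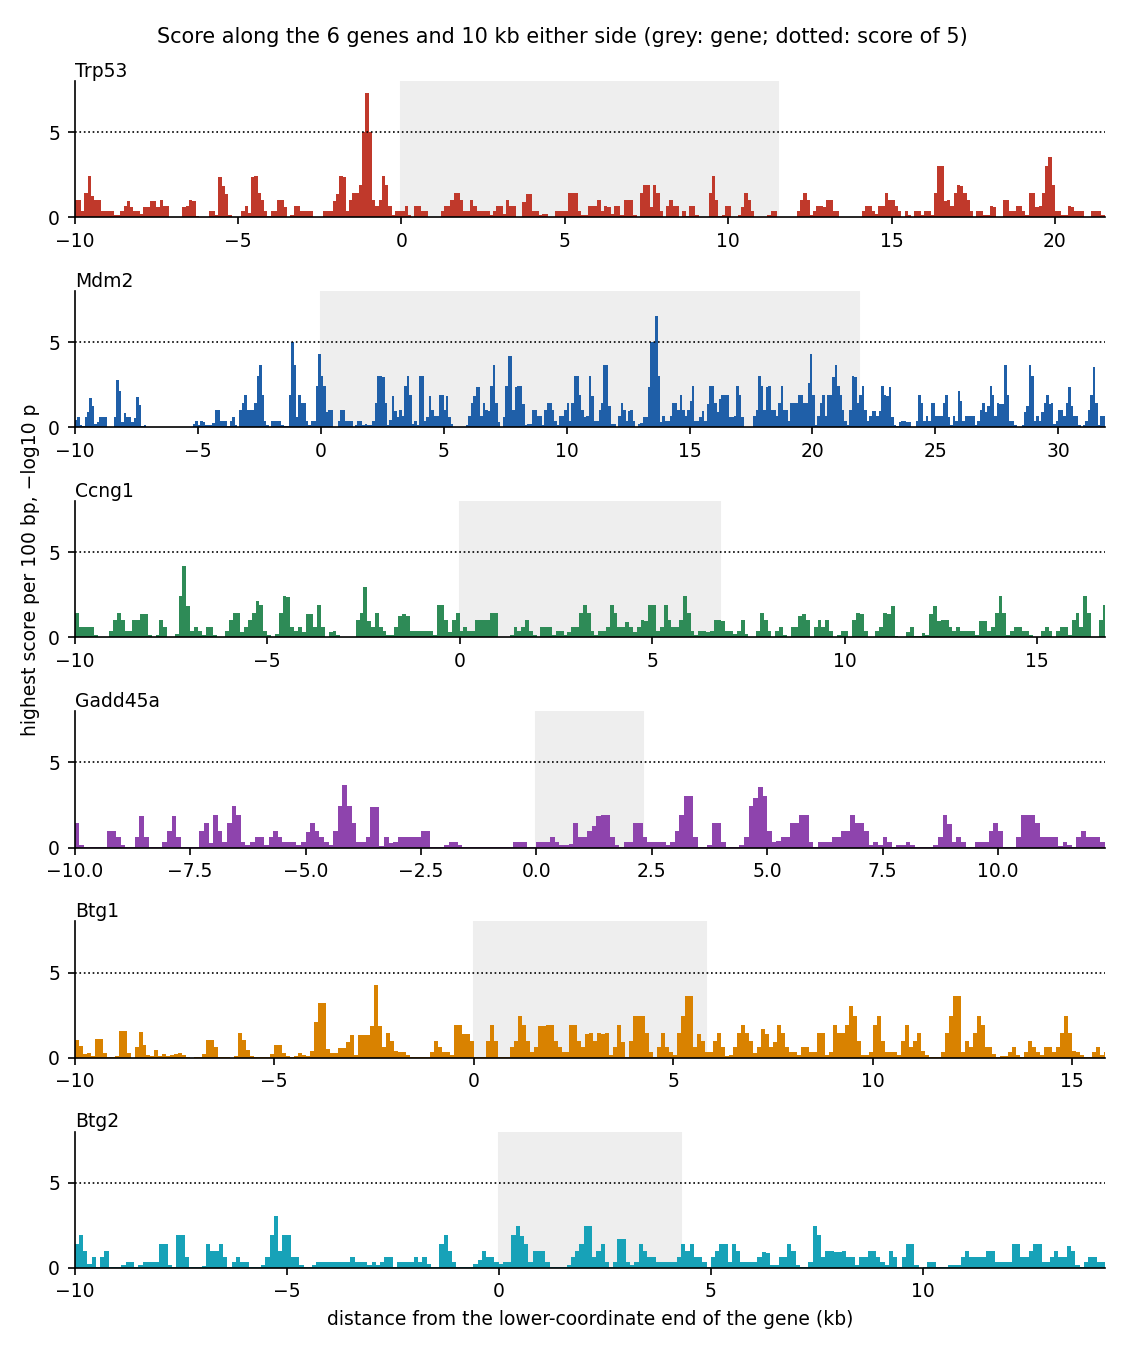
Bars are the highest score (−log10 p) in each 100 bp along the 6 genes and 10 kb either side, against the distance in kb from the lower-coordinate end; grey marks the gene and the dotted line a score of 5. Bars pass 5 beside Trp53, inside Mdm2 and, by a narrow margin (5.01), below Mdm2, and at none of the other 4 genes.

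The counts of members that reached 5 were set beside the shares of all genes. Within 1 kb of either end 1 of 6 (Trp53) reached 5, against 3.6% of all protein-coding genes, 5.16% of those on chromosome 11, which carries Trp53, and 8.19% of those on chromosome 10. Inside the gene 1 of 6 (Mdm2) did, against 13.9% of all genes, 9.1% of the 1000 genes closest to Mdm2 in length and 30.6% of chromosome 10 genes. Within 10 kb outside, 2 of 6 (Trp53 and Mdm2) did, against 10.3% of all genes and 25.5% of chromosome 10 genes. With 6 genes a single member moves each of these shares by more than the share of all genes that reached 5, so 6 genes are too few to set the group apart or to place it at the background. When the cutoff was set at 5.46, where the adjusted p is 0.05, the counts were 0 at the ends, 1 inside (Mdm2) and 1 outside (Trp53), against 2.26%, 7.41% and 5.38% of all genes. The median score of the 6 was 3.33 at the ends against 2.44 for all genes, 2.44 against 3.02 inside and 4.22 against 3.55 outside.

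Mdm2 held more low summits than the other 5 genes. In the gene and its flanks of 10 kb, 21 runs of bases reached 3, of which 15 were inside, 3 below and 3 above. This is 5.01 runs per 10 kb, against a median of 0.783 over all genes and 1.69 over those of chromosome 10. As many runs per 10 kb were found at 0.128% of all genes and 0.799% of chromosome 10 genes. Most were short, with a median of 34 bp, and 2 of the 21 reached 5. Once the expected level was raised to the depth of the chromosome, 7 runs remained at Mdm2. This is 1.67 per 10 kb against a median of 0.478 over all genes, and 4.66% of genes had as many.

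Gadd45a held 6 runs, or 2.69 per 10 kb, and Btg1 held 7, or 2.71 per 10 kb. As many were found at 2.59% of all genes for Gadd45a and 2.52% for Btg1. Among the genes of their own chromosomes the shares were 1.78% and 16.3%. With the expected level at chromosome depth, the numbers were 2 and 1, and 22.4% and 62.3% of genes had as many per 10 kb. The median of all genes was then 0.478 per 10 kb. Chromosomes shallower than the autosome median were left as they were. At Gadd45a, on a chromosome 1.05 times as deep as that median, a base with 8 reads went from 3.02 to 2.89, below the cutoff of 3. Without that change, Trp53 held 4 runs, Ccng1 held 2 and Btg2 held 1.

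Reads summed over whole windows gave a measure that does not rest on 1 base. The read numbers and intervals assume that each read was extended to 150 bp. The ratio of inferred ChIP reads to the reads expected had a median of 0.592 over all genes at their ends and 0.757 over those of chromosome 10. The expected level is never under 2.43 and is higher where Input is higher. On chromosome 17, which is at the autosome median of depth, the mean inferred ChIP pileup was 1.73 reads, under that level. A ratio below 1 is therefore not by itself a sign of depletion. Why the medians lie below 1 was not tested. For Mdm2 the ratio at the ends was 1.19 from 87 reads (95% exact Poisson interval 0.949 to 1.46), and 1.04% of all genes and 5.09% of chromosome 10 genes had a ratio as high. Relative to the mean pileup of the chromosome, the ends of Mdm2 were at 1.34, and 10.9% of genes were as high. On that scale Btg2 was at 1.29, Ccng1 at 1.20, Btg1 at 0.961, Gadd45a at 0.937 and Trp53 at 0.848. By the ratio to the expected reads, Trp53 was at 0.597 from 40 reads (0.425 to 0.811), with 48.9% of genes as high. Its ratio depended on the window, at 0.357 within 500 bp (84.6% of genes as high) and 0.814 within 2 kb (9.13%), which takes in the site inside Wrap53. The other 4 genes lay between 0.665 for Gadd45a and 0.848 for Btg1. Their intervals overlapped each other and that of Mdm2, except that the interval of Gadd45a, which ended at 0.887, lay below that of Mdm2, as did that of Trp53. Intervals on reads divided by 2, standing in for read pairs, reached down to 0.870 for Mdm2. They reached up to 1.02 for Gadd45a and 0.920 for Trp53, so these overlapped too. The references E2f7 and E2f8 had ratios of 1.43 and 1.08 at their ends.

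Inside the genes the order was similar, though the end windows reach 1 kb into each gene, so both measures count some of the same reads. Mdm2 had a ratio of 1.14 from 477 reads (1.04 to 1.25), against a median of 0.597 over all genes and 0.749 over those of chromosome 10. As high a ratio was found in 0.969% of all genes, 0.1% of genes of like length and 3.20% of chromosome 10 genes. Btg1 followed at 1.03 (0.853 to 1.25), which 1.85% of all genes and 5.59% of chromosome 10 genes reached. Its interval overlapped that of Mdm2. Ccng1 (0.821), Gadd45a (0.827) and Btg2 (0.845) did not differ beyond their intervals, and Trp53 was lowest at 0.628 (0.524 to 0.747), with 40.0% of genes as high. The interval of Trp53 overlapped those of Ccng1, Gadd45a and Btg2, which began at 0.666, 0.576 and 0.650. It lay below those of Mdm2 and Btg1. On reads divided by 2, the interval of Mdm2 reached down to 1.001. That of Btg1 reached down to 0.782 and that of Trp53 up to 0.809, so the intervals of Btg1 and Trp53 then overlapped.

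Set against the mean pileup of its own chromosome in place of the expected level, the body of Mdm2 was at 1.34 and 6.46% of genes were as high, while the body of Btg1 was at 1.18 with 13.6% as high. Ccng1, Gadd45a and Btg2 lay at 1.17 to 1.23 on the same scale, with 10.5%, 14.3% and 11.4% of genes as high, and Trp53 at 0.932 with 64.8%. All 6 genes thus ranked lower on this scale than by the ratio to the expected level, on chromosome 10 and on the other chromosomes.

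**Figure D4:**
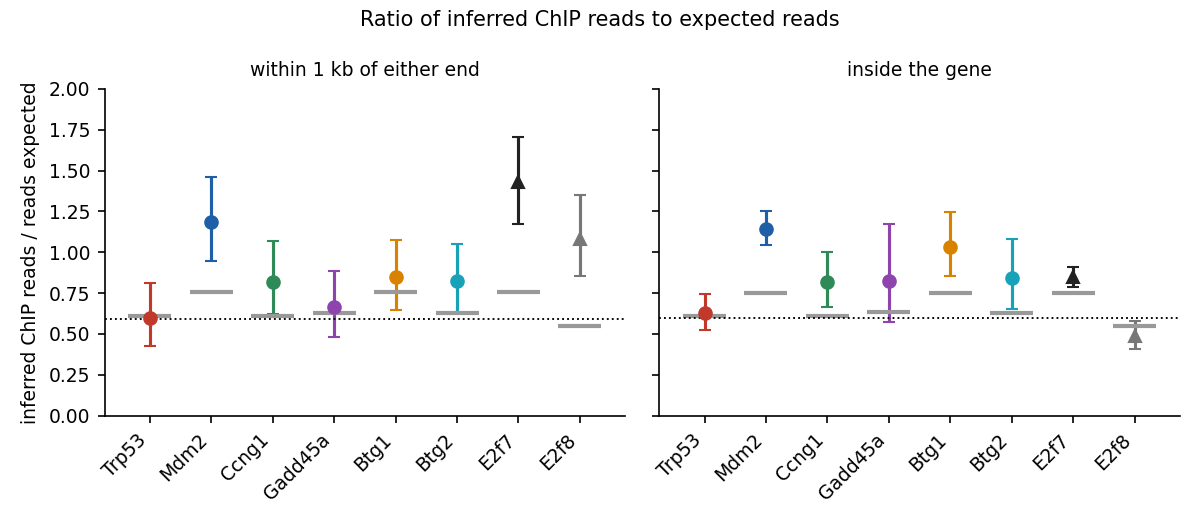
Points are the ratio of inferred ChIP reads to the reads expected, within 1 kb of either end (left) and inside the gene (right), with 95% exact Poisson intervals that cover counting error only; the dotted line is the median of all protein-coding genes and grey dashes the median of each gene's chromosome. Mdm2 is highest of the 6 genes in both panels, at 1.19 and 1.14, and chromosome 10 has the highest chromosome median of those shown.

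Other genes of the pathway were taken from a list of 51 that excludes the 6 members. The list also holds the 10 paralogues of the members, and whether each of these is a p53 target was not checked. It was chosen with earlier results of these data known, and it includes E2f7, a locus on which the study centres. No count of list genes given here can therefore be read as a trait of the pathway. Within 1 kb of an end 6 of 51 (11.8%) reached a score of 5, against 3.6% of all genes, and the median of the list, 2.44, equalled that of all genes. E2f7, itself a p53 target, is 1 of these 6, and without it the count was 5 of 50. Ccng2, 1 of the paralogues, is another of the 6. By role, 1 of 13 regulators of p53, 3 of 22 genes of arrest and repair and 2 of 16 genes of cell death and other functions reached 5. The Wrap53 value among the regulators is the site already described beside Trp53.

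Called regions lay within 10 kb of 3 of the 51 genes, against 0.672% of all protein-coding genes, and all 3 (E2f7, Sesn2 and Ccng2) are in the arrest and repair group. Without E2f7 the count was 2 of 50. Sesn2 (gene 230784), which encodes a stress-induced inhibitor of mTORC1 signalling, had a region on chromosome 4 from 132510462 to 132510846. Its summit of 11.66 lay 276 bp outside the higher-coordinate end, from 19 reads at a fold of 7.80 (adjusted p of the MACS2 value 4.36e-07). Ccng2 (gene 12452), the paralogue of Ccng1, lies on chromosome 5 from 93267573 to 93276231 and scored 10.54 from 18 reads at position 93267512, 61 bp below its lower-coordinate end. The called region there, from 93267146 to 93267428, is a separate stretch of the same run with a summit of 8.13. At the ends of Ccng1 the score was 2.44, a difference of 11 reads over the best base between the paralogues.

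The remaining values of at least 5 at gene ends were both 5.01, at Bbc3, which encodes the cell death protein PUMA, and Bcl2l1, which encodes the survival protein Bcl-xL. Of the 10 paralogues of the members, Ccng2 alone reached 5 at its ends. Mdm4, the partner of Mdm2 in p53 control, scored 4.31 at its ends, the same as Mdm2. Gadd45b and Gadd45g scored 3.65 and 2.44, Tob1 and Tob2 3.65 and 1.90, and Btg3 and Btg4 1.42 and 1.90. Trp63 and Trp73, the relatives of Trp53, scored 2.44 and 1.42.

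**Figure D5:**
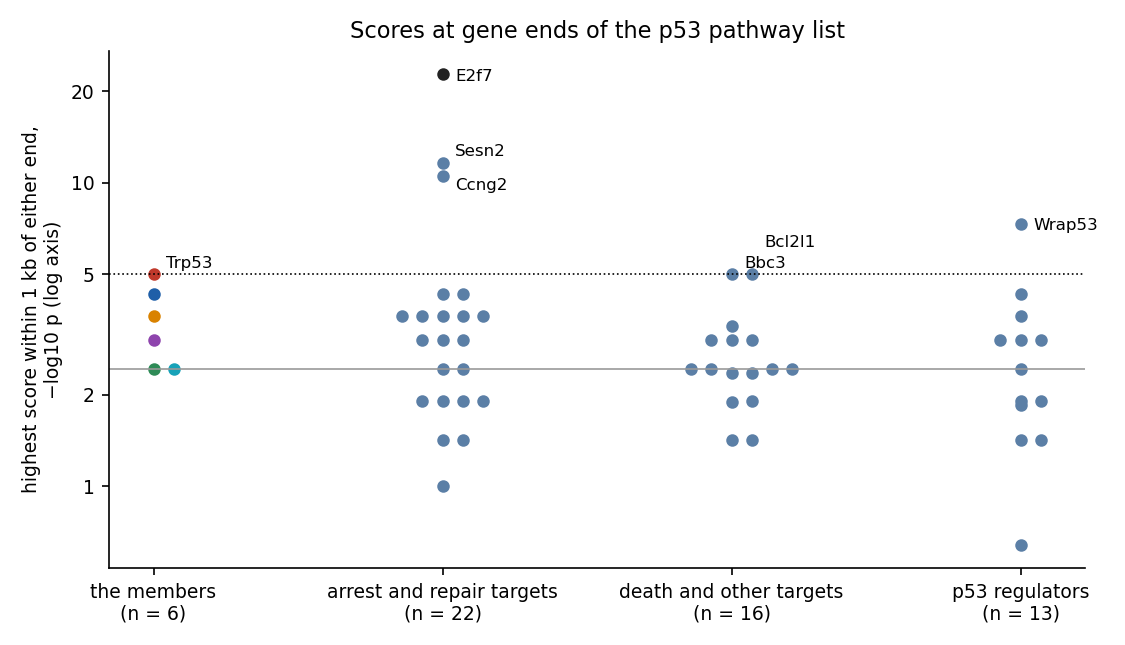
Each point is the highest score (−log10 p, log axis) within 1 kb of either end of 1 gene, for the 6 members and the 51 list genes by role. The list includes paralogues of the members. The dotted line is a score of 5 and the grey line the median of all protein-coding genes (2.44). E2f7, Sesn2 and Ccng2 stand above 10, and all 6 members lie at or below 5.01.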

How the data were processed

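TBX3 ChIP-Seq and Input libraries of mouse primary hepatocytes (2 of each) were represented by a single track. The submitters' processing notes list Bowtie2, SAMtools, MACS2 and mm10, and versions are not given in the sources used here. The authors deposited −log10 p-values per base, over 110667813 intervals and 2727620324 bases. Which libraries entered the track, and how they were combined, is not given in the sources used here, so the depth of single libraries is unknown.

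From these values the highest score was taken within 1 kb of either end of each gene, inside it and within 10 kb outside. Genes came from RefSeq GRCm38.p6 (21887 protein-coding of 49943), without strand. Shares of genes as high count ties and carry Wilson intervals. P-values were adjusted by the Benjamini-Hochberg method over all positions of the track. For each score, the integer read number and the Poisson mean that give it were inferred along the chromosome, for 99.999% of bases and 99.0% of those with a score of at least 5. Inferred totals were about 30071376 ChIP reads and 36015853 Input reads, for an Input scale of 0.835 and an assumed read extension of 150 bp. Where read mates were counted separately, reads are not independent molecules and Poisson intervals are too narrow. On a simulated track of 4000000 bases the inferred pileup was right at 99.99% of bases, 20 of 20 planted sites were called and 0 regions were called elsewhere. The planted sites held more reads than those at Trp53 and Mdm2, and the simulated Input was uniform. The simulated expected levels were also built in the way the inference assumes. The simulation therefore does not show how often sites as weak as those at Trp53 and Mdm2 would be called.

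The genes named are the 6 members, E2f7 and E2f8, the members' paralogues, up to 10 other pathway genes with the highest scores at their ends and the neighbours of the members' outside summits. Genes of the list that are named for scores inside or outside the gene were chosen after their values were seen. The members and lists were chosen with earlier results of these data known. Sequences and motifs were not analysed here. Computations used scipy 1.17.1 and statsmodels 0.14.6 with numpy 2.4.6, numba 0.67.0 and pandas 2.3.3, in Python 3.11.15, and matplotlib 3.10.9 for figures.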

Additional observations from a re-analysis of the deposited data

How the results depend on the processing

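No paired analysis was possible because values per sample are absent from the track used here, and for the same reason no replicate could be left out. Windows at transcription starts alone, which need the strand, and the motif search, which needs sequence, were not run. The number of members with a score of at least 5 at their ends, 1, became 4 when a score of 3 sufficed (reached by 29.0% of all genes) and 0 when 10 was required (0.279%), at an adjusted p of 0.05 (2.26%), with read pairs counted once (0.457%) and at chromosome depth (2.50%), and, with windows chosen after the data were seen, 0 within 500 bp (2.56%) and 2 within 2 kb (5.19%). Inside the gene, 1 became 2 for a score of 3 (61.9% of all genes) and 0 for a score of 10 (0.370%), with pairs counted once (0.585%) and at chromosome depth (8.93%). Within 10 kb outside, 2 became 6 for a score of 3 (74.8% of all genes), 0 for a score of 10 (0.443%) and with pairs counted once (0.745%), and 1 at an adjusted p of 0.05 (5.38%) and at chromosome depth (6.48%). Members with a called region went from 0 to 2 for a score of 3 (Trp53 and Mdm2, against 3.02% of all genes), 1 with a minimum length of 100 bp (Trp53, against 2.56%) and 1 when gaps up to 100 bp were bridged (Mdm2, against 0.927%). They stayed at 0 within 20 kb (0.813%) and 50 kb (1.43%), and in settings added after the data were seen, with pairs counted once (0.224%) and at chromosome depth (0.562%). The median score of the members at their ends, 3.33, was 2.17 within 500 bp (all genes 1.90), 2.09 with pairs counted once (1.45) and 0.461 as a mean score (0.333), in each case above that of all genes. The list genes with a score of at least 5 at their ends, 6 of 51, became 25 for a score of 3 (49.0%, against 29.0% of all genes). For a score of 10 they were 3, E2f7 among them (5.88%, against 0.279%). Within 500 bp they were 4 (7.84%, against 2.56%), and within 2 kb 6 (11.8%, against 5.19%). Of 138 further shares and ratios of single members under the alternatives, 15 stayed within their counting interval and 123 moved beyond it. The changes in counts follow from how each setting raises or lowers scores, cutoffs or lengths. The settings for run numbers at chromosome depth, for intervals on read pairs and for ranks of the inside ratio were also added after the data were seen. Whole read numbers limit all values, because at a given expected level a score moves only in steps of 1 read.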

Other observations

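Other values of the pathway list lay inside and around the genes, where windows differ in length between genes and were not matched for it. Inside the gene 11 of 51 list genes (21.6%) reached a score of 5, against 13.9% of all protein-coding genes. Named after their values were seen, they are E2f7 (22.79), Ccng2 (8.13), Wrap53 and Trp63 (both 7.31), Ephx1 (6.51), Bcl2l1 (5.75), Apaf1 (5.61), and Bbc3, Btg3, Cdkn1a and Usp7 (each 5.01). The values of E2f7, Wrap53 and Bbc3 are the same bases as their scores at the gene ends, and that of Ccng2 belongs to the run whose summit lies outside the gene. Cdkn1a, which encodes the p53-induced cell cycle inhibitor p21, also scored 4.31 at its ends and 5.35 within 10 kb outside. Within 10 kb outside, 8 of 51 (15.7%) reached 5, against 10.3% of all genes. In windows added after the data were seen, Btg2 joined Trp53 and Mdm2 among the members with a score of at least 5 within 20 kb outside (17.8% of all genes), while within 5 kb these were Trp53 and Mdm2 (5.99%).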
